A study of Mus musculus with 6 samples.

Results

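A set of 10 genes of the primitive streak and early mesoderm was examined after depletion of Fip1 in mouse embryonic stem cells: Kdr, Evx1, Gsc, Mixl1, Mesp1, Lhx1, Tbx6, Snai1, Snai2 and Isl1. They were taken by gene symbol, 1 probe set each, and are 10 of the 15267 named genes of the array table. They were chosen with earlier results of these data known, so counts of the 10 beside shares of all genes are descriptive only. Fip1, encoded by Fip1l1, belongs to the complex that recognises poly(A) signals and directs cleavage at the 3′ ends of transcripts. The 6 Affymetrix arrays held biotin-labelled total RNA of E14Tg2a.4, an embryonic stem cell line, kept on gelatin in M15 medium and collected on day 4 after lipofection. The siFip1-2 group (2 arrays) received Fip1L1 siRNA 2, the siFip1-3 group (2 arrays) received Fip1L1 siRNA 3, and the Mock group (2 arrays) received Lipofectamine 2000 alone. No group carried a non-targeting siRNA, so the effect of any siRNA and that of Fip1 loss cannot be told apart. The labels do not say whether replicates were separate cultures, and the p-values then measure only the spread between these arrays, which may be technical.

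The primitive streak is the furrow of the gastrulating embryo through which epiblast cells leave the epithelium and become mesoderm and definitive endoderm. Nodal, Wnt, BMP and FGF signals induce it, and transcription factors then divide it into an anterior end, which forms the organizer, and a posterior end, which forms extraembryonic and lateral mesoderm. Embryonic stem cells in self-renewing culture resemble the epiblast before this step and can express streak genes as they differentiate.

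Fip1l1 had log2 values of 8.26 and 7.79 in the siFip1-2 group, 8.39 and 7.86 in the siFip1-3 group, and 9.65 and 9.74 in the Mock group. The 11 pluripotency markers of the cell type stood between percentiles 89.3 and 99.9 of brightness on the arrays. Array medians were 6.08 to 6.12 on the log2 scale, and with 6 arrays in all their number limits the precision.

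Of the 10 genes, 3 rose after depletion and none fell, with limma and an adjusted p threshold of 0.05 for the mean of both siRNAs minus Mock. An unadjusted p under 0.05 was found for 4 of the 10, all of them higher, and for 24.3% of all genes. Kdr, the receptor for vascular endothelial growth factor that marks mesoderm with blood and vessel potential, was 1.95-fold higher. Evx1, a homeobox factor of the posterior streak, was 1.61-fold higher, and Gsc, a homeobox repressor of the anterior streak and organizer, was 1.49-fold higher. The other 7 genes had log2 differences between -0.17 and 0.32 that did not pass (adjusted p 0.183 to 0.832). Over all genes 10.3% passed, 4.15% as higher and 6.19% as lower. Among 4818 genes within the range of mean level of these 10, 6.97% passed and 2.93% passed as higher. With the replicate number as a block the same 3 genes passed, where 20.2% of all genes did (8.43% higher, 11.7% lower).

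The windows around the transcription starts of the 3 genes that rose are shown because these genes passed the test. Each runs from 250 bases before to 50 bases after the start listed by RefSeq (GRCm38.p6) and reads 5′ to 3′ along the gene. Kdr lies on the minus strand at chr5:75978406-75978705, Evx1 on the plus strand at chr6:52313248-52313547, and Gsc on the minus strand at chr12:104473187-104473486. The RefSeq span of Kdr extends to base 75979072, upstream of the start used for this window. Capitals mark a CAGGTG match, read on the opposite strand.
Kdr: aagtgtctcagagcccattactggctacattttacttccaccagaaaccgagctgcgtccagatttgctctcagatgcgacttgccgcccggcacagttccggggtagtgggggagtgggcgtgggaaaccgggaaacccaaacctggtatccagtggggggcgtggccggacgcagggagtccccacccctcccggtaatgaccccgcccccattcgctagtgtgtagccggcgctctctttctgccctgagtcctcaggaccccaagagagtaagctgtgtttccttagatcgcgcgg
Evx1: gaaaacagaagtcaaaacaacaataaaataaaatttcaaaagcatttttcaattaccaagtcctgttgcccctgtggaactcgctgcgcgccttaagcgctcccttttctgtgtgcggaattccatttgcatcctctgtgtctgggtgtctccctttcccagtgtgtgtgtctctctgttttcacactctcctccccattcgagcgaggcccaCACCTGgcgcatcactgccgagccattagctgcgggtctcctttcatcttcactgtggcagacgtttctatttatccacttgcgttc
Gsc: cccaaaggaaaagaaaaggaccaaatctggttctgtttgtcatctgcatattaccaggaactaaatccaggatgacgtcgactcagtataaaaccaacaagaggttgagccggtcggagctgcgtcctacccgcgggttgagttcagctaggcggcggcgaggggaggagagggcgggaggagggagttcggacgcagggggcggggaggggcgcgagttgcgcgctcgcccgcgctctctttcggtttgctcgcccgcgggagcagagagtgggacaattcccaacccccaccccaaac
Promoters of 8 of the 10 genes were in the RefSeq table; Mixl1 and Snai2 were not. The GC content was 60.7% for Kdr, 48.7% for Evx1 and 60.3% for Gsc, against a median of 52.7% over 32851 promoters of the same length. The windows hold 19, 12 and 25 CpG dinucleotides in the order Kdr, Evx1 and Gsc, against a median of 7. Searched on both strands, the Snail E-box CAGGTG occurred in 20.2% of all promoters and in those of Evx1, Mesp1 and Snai1. The first base of the Evx1 match lies 37 bases upstream of the start. The TCF/LEF motif CTTTGAT occurred in 3.73% of promoters and in that of Mesp1, and the Goosecoid-type motif TAATCC in 7.06% and in that of Isl1. The FOXH1 core ATNCACA occurred in 13.0% of promoters and in 0 of the 8. None of these matches overlapped another, and a match describes the letters of the window only.

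Among the homeobox factors of the streak, Evx1 had log2 values of 5.98 and 6.06 in the siFip1-2 group, 5.49 and 5.56 in the siFip1-3 group, and 5.21 and 4.95 in the Mock group. All 4 siRNA arrays were above both Mock arrays, and the siFip1-2 arrays were above the siFip1-3 arrays. The mean difference from Mock was 0.69 (SE 0.129, 95% confidence interval 0.40 to 0.99, limma adjusted p = 0.0137). The call ended without siFip1-2 replicate 2 (adjusted p = 0.0523) or Mock replicate 2 (0.120).

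Gsc had log2 values of 4.15 and 4.53 in the siFip1-2 group, 3.90 and 4.28 in the siFip1-3 group, and 3.54 and 3.73 in the Mock group. All 4 siRNA arrays were above both Mock arrays, and replicate 2 was the higher array in each group. The mean difference was 0.58 (SE 0.152, 95% confidence interval 0.23 to 0.93, limma adjusted p = 0.0478), or adjusted p = 0.00445 with the replicate number as a block. In the Mock group Gsc stood at percentile 11.1 of brightness, below the 25th percentile of those arrays. On the siRNA arrays it stood at percentile 24.9. No detection calls were available, so the expression of Gsc is uncertain in the Mock group and on the siRNA arrays. The call ended without siFip1-2 replicate 2 (adjusted p = 0.121), siFip1-3 replicate 2 (0.0877), Mock replicate 1 (0.214) or Mock replicate 2 (0.150), with every probe set fitted (0.0505) and without the variance trend (0.0595).

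Mixl1, a paired-type homeobox factor of the streak, and Lhx1, a LIM homeobox factor of the organizer and early mesoderm, did not pass. Mixl1 had log2 values of 4.41 and 4.20 in the siFip1-2 group, 4.28 and 4.55 in the siFip1-3 group, and 4.57 and 4.45 in the Mock group, with a mean difference of -0.15 (adjusted p = 0.541). Lhx1 had 4.49 and 4.48 in the siFip1-2 group, 4.29 and 4.19 in the siFip1-3 group, and 4.37 and 4.22 in the Mock group, with a mean difference of 0.067 (adjusted p = 0.770). For both, values of the siRNA arrays overlapped those of the Mock arrays.

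Snai1 and Snai2 are zinc finger repressors of E-cadherin and act in the epithelial to mesenchymal transition; in the mouse gastrula Snai1 is required for it. Snai2 had log2 values of 5.04 and 5.18 in the siFip1-2 group, 5.03 and 4.84 in the siFip1-3 group, and 4.58 and 4.83 in the Mock group. All 4 siRNA arrays were above both Mock arrays, with siFip1-3 replicate 2 only just so. The difference of 0.32 (SE 0.132) did not pass (adjusted p = 0.183). Snai1 had 4.81 and 5.20 in the siFip1-2 group, 5.26 and 5.37 in the siFip1-3 group, and 5.05 and 4.71 in the Mock group, and siFip1-2 replicate 1 lay between the Mock arrays. Its difference was 0.28 (SE 0.158, adjusted p = 0.333).

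Of the mesoderm genes, Kdr had the largest difference of the 10. It had log2 values of 6.47 and 6.55 in the siFip1-2 group, 6.09 and 6.19 in the siFip1-3 group, and 5.28 and 5.45 in the Mock group. The groups did not overlap and were ordered siFip1-2, siFip1-3, Mock. The mean difference was 0.96 (SE 0.123, 95% confidence interval 0.68 to 1.25, limma adjusted p = 0.00323), and it passed without any 1 of the 6 arrays (0.00512 to 0.0270). In bulk RNA, more cells expressing Kdr and more Kdr RNA per cell cannot be told apart. The positions of the probes were not used, so for each of these genes an altered transcript end and a change of mRNA level cannot be told apart.

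Mesp1, a bHLH factor of the earliest cardiac mesoderm, had log2 values of 6.40 and 6.21 in the siFip1-2 group, 6.08 and 6.34 in the siFip1-3 group, and 6.28 and 6.57 in the Mock group, with a difference of -0.17 (adjusted p = 0.552). Tbx6, a T-box factor of paraxial mesoderm, had 4.49 and 4.41 in the siFip1-2 group, 4.21 and 4.42 in the siFip1-3 group, and 4.33 and 4.65 in the Mock group, with a difference of -0.11 (adjusted p = 0.695). Isl1, a LIM homeobox factor of cardiac progenitors, had 4.30 and 4.52 in the siFip1-2 group, 4.38 and 4.24 in the siFip1-3 group, and 4.27 and 4.34 in the Mock group, with a difference of 0.055 (adjusted p = 0.832). Groups overlapped for all 3 genes.

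**Figure D1:**
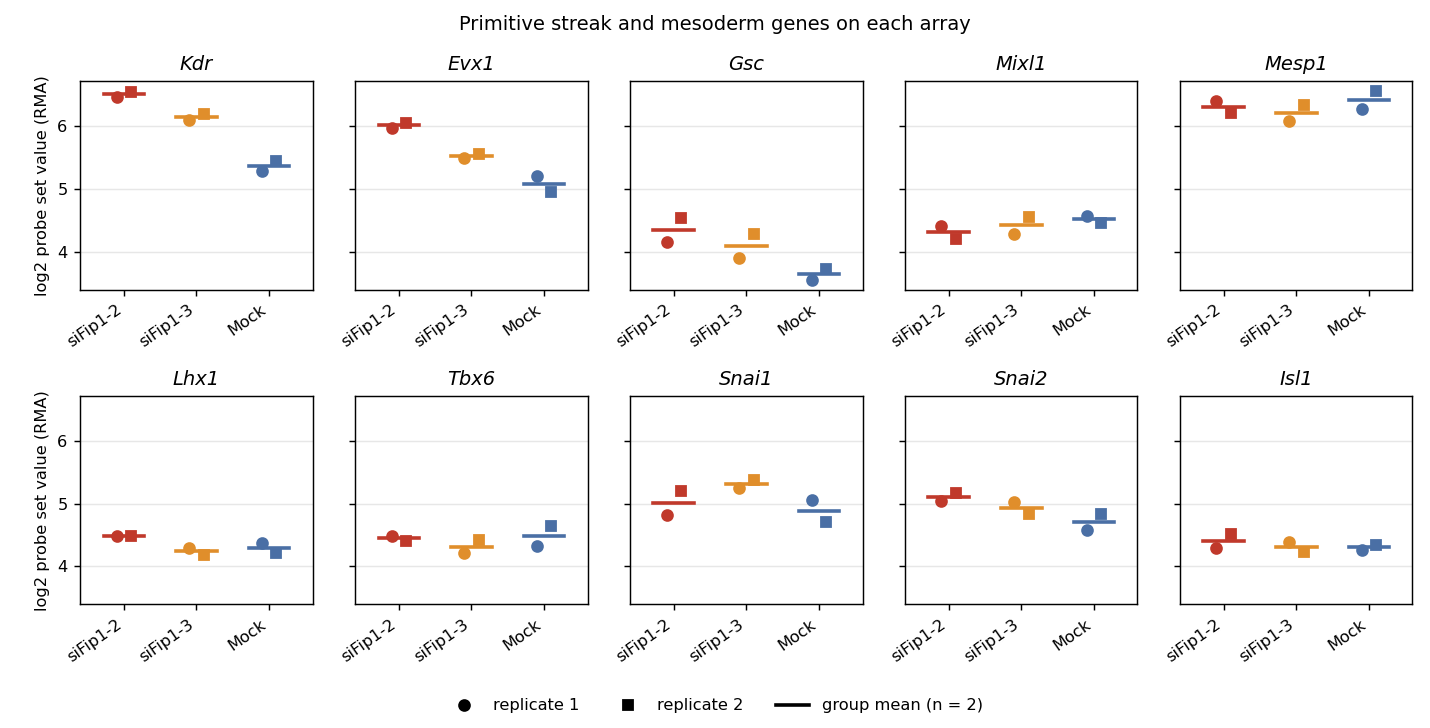
Log2 value of each of the 10 genes on each array, with siFip1-2, siFip1-3 and Mock from left to right in each panel. For Kdr, Evx1, Gsc and Snai2 all 4 siRNA arrays lie above both Mock arrays.

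In 4 of the 10 genes (Kdr, Evx1, Gsc and Snai2) all 4 siRNA arrays were above both Mock arrays, where 15.2% of all genes were, and 13.2% of genes at their level. In 0 of the 10 were all 4 below, where 18.4% of all genes were. The median difference of the 10 was 0.17, with 7 positive, against -0.0015 over all genes and 0.010 over genes at their level. The 8 trophectoderm markers given below had a median of 0.20, with 8 positive. Medians of the other lists lay between -0.086 and 0.14.

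Each siRNA was then compared with Mock by itself; these comparisons share the Mock arrays, so their values are given side by side. With siFip1-2, Kdr rose by 1.15 (2.22-fold, limma adjusted p = 0.00454) and Evx1 by 0.94 (1.92-fold, adjusted p = 0.0106), which is 2 of 10 genes beside 6.92% of all genes (2.91% higher, 4.01% lower). Gsc had a difference of 0.70 with siFip1-2 (adjusted p = 0.0504, or 0.00435 with the replicate block). It also passed with arrays centred on the common median (0.0424), with only the 2 groups fitted (0.0299), and without siFip1-3 replicate 1 (0.0311) or siFip1-3 replicate 2 (0.0303). With siFip1-3, Kdr rose by 0.78 (1.72-fold, adjusted p = 0.0205), which is 1 of 10 beside 5.74% of all genes (2.26% higher, 3.48% lower). Evx1 had a difference of 0.44 (adjusted p = 0.134) and Gsc of 0.45 (adjusted p = 0.189, or 0.0334 with the block) with siFip1-3. With the block, 3 of the 10 passed with siFip1-2, where 17.2% of all genes did (7.24% higher, 9.95% lower), and 2 with siFip1-3, where 14.1% did (5.74% higher, 8.38% lower). The Kdr call with siFip1-3 ended without either siFip1-3 array or either Mock array (adjusted p up to 0.110), and with siFip1-2 it ended without siFip1-2 replicate 2 (0.0605). The Evx1 call with siFip1-2 ended without either siFip1-2 array or without Mock replicate 2 (up to 0.0979).

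**Figure D2:**
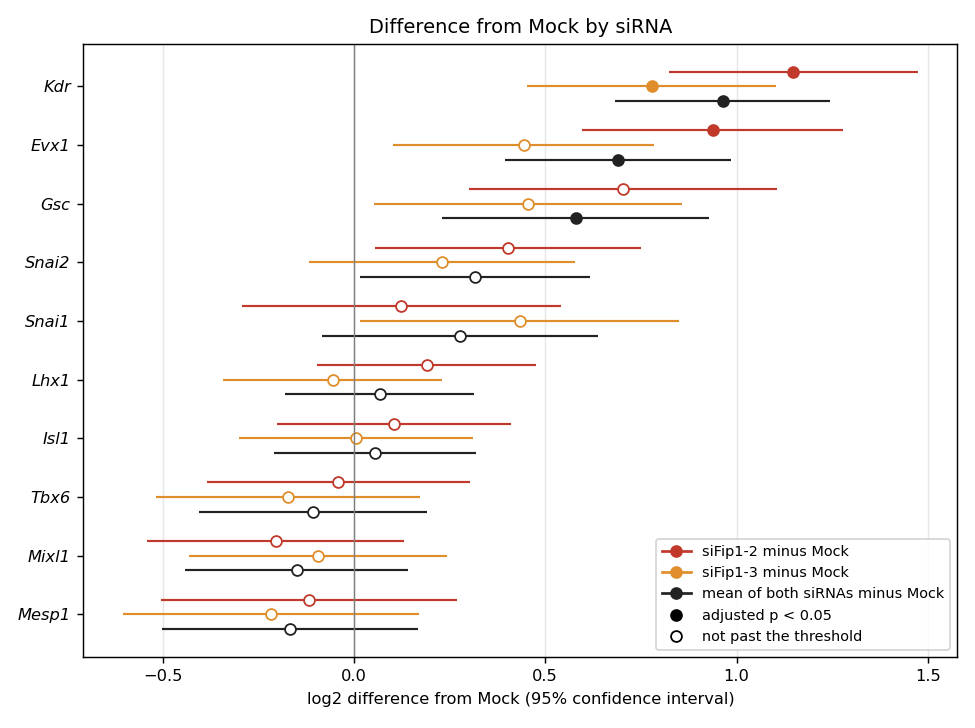
Log2 difference from Mock for each gene and each siRNA, with 95% confidence intervals from the limma model. Kdr lies at 1.15 with siFip1-2 and 0.78 with siFip1-3, and both intervals exclude 0.

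The siRNAs were also compared with each other. Both siFip1-2 arrays were above both siFip1-3 arrays for 4 genes, where 21.4% of all genes were, and below for 1, where 12.7% were. The difference of siFip1-2 minus siFip1-3 was 0.49 for Evx1 (95% confidence interval 0.15 to 0.83) and 0.37 for Kdr (0.044 to 0.69). No gene of the 10 or of the whole table passed in limma (0%, lowest adjusted p = 0.984), while 2 of the 10 and 644 of all genes had an unadjusted p under 0.05. For Gsc the difference was 0.25 (-0.15 to 0.65).

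Arrays of equal replicate number carry a common suffix in their titles, and the differences from Mock were taken within each number. All 4 of them were positive for 4 of the 10 genes, where this held for 22.1% of all genes. All 4 were negative for 0 of the 10, where this held for 25.5%. The 4 genes were Kdr, Evx1, Gsc and Snai2. Their siRNA arrays were all above both Mock arrays, so the signs follow from that and are no further result. Kdr differed by 1.19 and 1.11 with siFip1-2 and by 0.81 and 0.75 with siFip1-3 in replicates 1 and 2. Evx1 differed by 0.77 and 1.11 with siFip1-2 and by 0.28 and 0.61 with siFip1-3, and Gsc by 0.60 and 0.81 with siFip1-2 and by 0.36 and 0.55 with siFip1-3. All of these were positive. Those of Snai2 were 0.46 and 0.35 with siFip1-2 and 0.45 and 0.011 with siFip1-3. Those of Snai1 were -0.24 and 0.49 with siFip1-2 and 0.20 and 0.66 with siFip1-3.

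**Figure D3:**
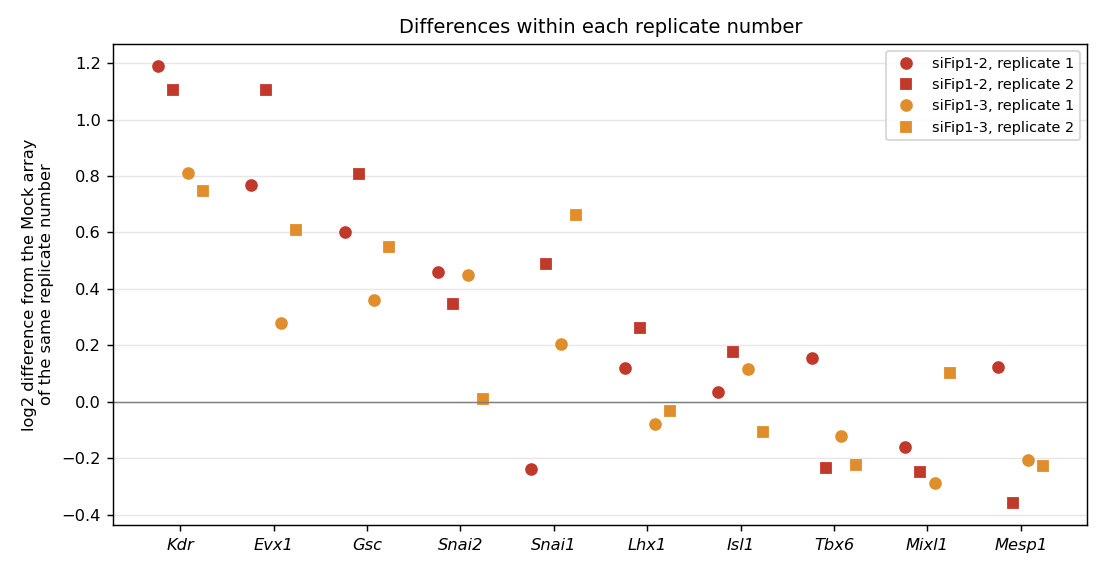
Log2 difference of each siRNA array from the Mock array with its replicate number. For Kdr, Evx1, Gsc and Snai2 all 4 differences lie above 0, and for Snai1 siFip1-2 in replicate 1 lies below 0.

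Between the replicate numbers, Gsc was 0.31 higher in replicate 2 than in replicate 1 (unadjusted p = 0.00993, limma adjusted p = 0.131). Gsc was the only gene of the 10 with an unadjusted p under 0.05, where 17.7% of all genes had one. None of the 10 passed, where 2.5% of all genes did (1.05% higher, 1.45% lower). Whether depletion acted differently in the replicate numbers was tested as an interaction. The fit pooled the siRNAs within each replicate number beside 1 Mock array, so gaps between the siRNAs entered its spread. A gene that did not pass may therefore still differ. The mean difference of Fip1l1 itself was -1.32 in replicate 1 and -1.92 in replicate 2. None of the 10 passed (0% of all genes; 0 of the 10 and 679 of all genes had an unadjusted p under 0.05), and the largest of the 10 was 0.59 for Snai1 (adjusted p = 0.999).

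Genes of related pathways were counted from lists by role, beside the 10.3% of all genes that passed for the mean of both siRNAs, or 20.2% with the replicate block. Of 32 measured genes of the inducing signals, 4 rose and 2 fell. The ligand Nodal rose by 0.78 (adjusted p = 0.00246), the BMP target Id3 by 0.70 (0.0118), the activin receptor Acvr2a by 0.52 (0.0381) and the BMP receptor Bmpr1a by 0.44 (0.0394). The Nodal antagonists Lefty1 and Lefty2 fell by 0.84 (0.0126) and 0.69 (0.0264). With the block 9 genes of this list were higher and 5 lower, beside that 20.2%. Of the genes past the threshold in these lists, Nodal was the only one that passed without any 1 array.

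Of 20 measured other factors of streak and early mesoderm, 2 rose and none fell. Eomes, a T-box factor of the streak, rose by 1.02 (adjusted p = 0.00664) and Cdx1, a homeobox factor of the posterior axis, by 0.72 (0.0136); with the block 4 were higher. Of 21 blood and vessel genes, Nrp1, a co-receptor of Kdr, rose by 0.59 (0.0310), and with the block 2 were higher. Nrp1 had log2 values of 4.08 and 4.10 in the Mock group, below the 25th percentile of those arrays. Of 16 cardiac genes, Myl7, an atrial myosin light chain, fell by 0.96 (0.0107), and with the block 2 were lower. Of 21 genes of the epithelial to mesenchymal transition 0 passed in limma, and 7 had an unadjusted p under 0.05, beside 24.3% of all genes. Snai3, a relative of Snai1, had a difference of 0.40 (adjusted p = 0.0657, or 0.0268 with the block). Vim, the mesenchymal intermediate filament vimentin, had a difference of 0.36 (0.0720, or 0.0301 with the block). These were the 2 genes of the list that were higher with the block, and 3 were lower. Snai3 also passed when genes dimmer than the 25th percentile were left out (0.0485) and without the variance trend (0.0363). Cdh1, the E-cadherin gene that Snai1 and Snai2 repress, was chosen after its values were seen. Its difference for the mean of both siRNAs was -0.19 and did not pass (adjusted p = 0.151). Cdh1 fell by 0.39 with siFip1-2 (adjusted p = 0.0318) and had a difference of 0.0068 with siFip1-3 (0.979). Without the block it was the 1 gene of the 21 that passed with siFip1-2, where 6.92% of all genes did. With the block 1 of the 21 was higher and 5 were lower with siFip1-2. Of all genes 17.2% passed there (7.24% higher, 9.95% lower). Without Mock replicate 2, Eomes, Cdx1, Nrp1, Myl7, Id3, Lefty2, Acvr2a and Bmpr1a did not pass. Cdx1 also did not pass without siFip1-2 replicate 2, nor Lefty1 without Mock replicate 1. Whichever array was left out, Bmpr1a did not pass. Acvr2a passed only when that array was Mock replicate 1, and Nrp1 only when it was siFip1-3 replicate 1. Lefty2 passed only when it was a siFip1-3 array.

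**Figure D4:**
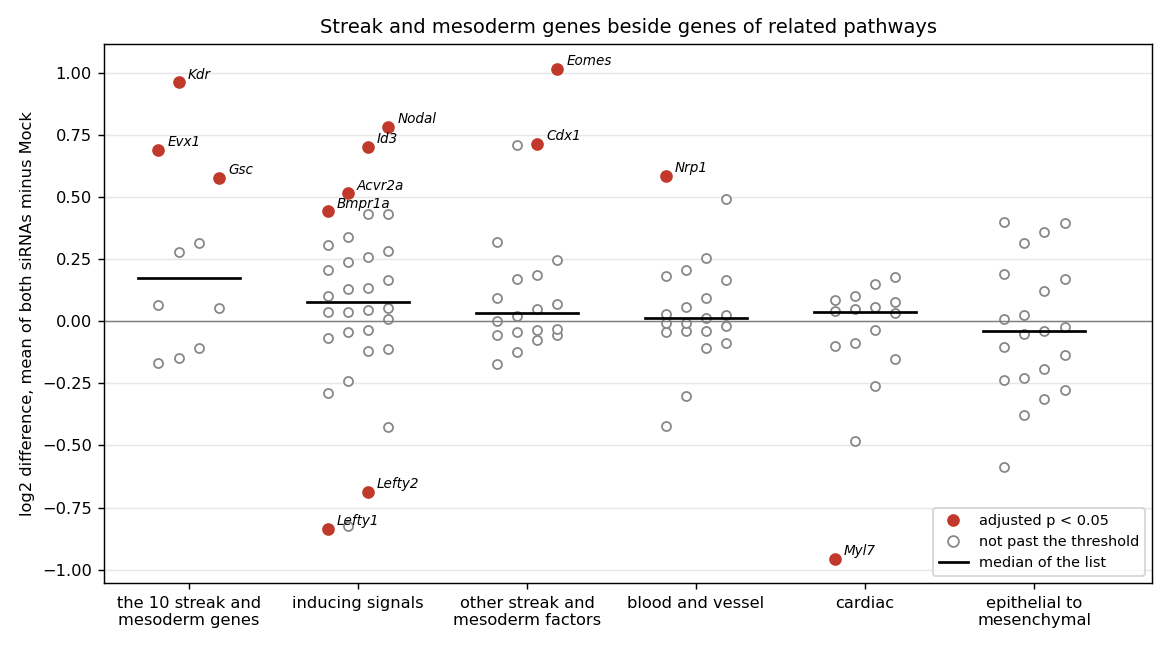
Log2 difference, mean of both siRNAs minus Mock, of the 10 genes and of the genes of each related list, with those past the threshold filled. Kdr, Evx1 and Gsc lie between 0.58 and 0.96, and Nodal (0.78) and Eomes (1.02) are among the genes that rose in the other lists.

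Markers of other cell types were read on the same arrays. Of 8 trophectoderm markers 1 rose, Gata3 by 0.82 (limma adjusted p = 0.00697), and 8 had a positive difference. Gata3 had log2 values of 4.30 and 3.99 in the Mock group, near the 25th percentile of those arrays. The mean log2 value of the list was 6.40 and 6.43 on siRNA arrays of replicate 1, against 6.22 for Mock. In replicate 2 it was 6.17 and 6.19, against 5.73 for Mock. Of 9 primitive endoderm markers 1 rose, Sparc by 0.67 (limma adjusted p = 0.0116), and 4 had a positive difference. Sox17 had a difference of -0.40 (0.423, or 0.0480 with the block). The list means were 6.20 to 6.67 on siRNA arrays and 6.12 and 6.60 on Mock arrays. Of 6 neuroectoderm markers 1 rose, Zic1 by 0.76 (limma adjusted p = 0.0308), and 4 had a positive difference. In the Mock group Zic1 had log2 values of 3.87 and 3.41, below the 25th percentile of those arrays, so its expression there is uncertain. Ncam1 and Pax6 had differences of -0.36 (0.135) and -0.35 (0.153). The list means were 5.79 to 5.81 on siRNA arrays and 5.76 and 5.64 on Mock arrays. With the block 3 trophectoderm markers were higher, and 1 primitive endoderm marker, Sox17, was lower. With 1 array left out the difference ran from 0.66 to 0.98 for Gata3, from 0.52 to 0.82 for Sparc and from 0.53 to 0.98 for Zic1. The Gata3 call ended without Mock replicate 2 and the Sparc call without Mock replicate 1. The Zic1 call ended without Mock replicate 2 or either siFip1-2 array. None of 11 pluripotency or 9 fibroblast markers passed in limma, and 2 and 0 of them had an unadjusted p under 0.05, beside 24.3% of all genes. With the block 1 pluripotency marker was higher and 3 were lower, beside 20.2% of all genes that passed. Tdgf1, the Nodal co-receptor, had a difference of -0.29 (adjusted p = 0.0791, or 0.0222 with the block), and it passed without Mock replicate 1 (0.0305). The growth factor Fgf4 had a difference of -0.24 (0.108, or 0.0443 with the block). The fibroblast markers of smallest p were Postn, with a difference of 0.12 (0.517), and Lum, with 0.10 (0.618). Fibroblast means were 4.24 to 4.39 on siRNA arrays and 4.23 and 4.35 on Mock arrays. The part of other cell types in the differences of Kdr, Evx1 and Gsc was not tested.

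Genes whose pattern over the 6 arrays was most like that of each gene that rose were sought among 5576 genes with a range of at least 0.5. For Kdr they were Smad6 (r = 0.998), Mbp (0.997) and Frmd6 (0.995). For Evx1 they were Tmem41b (0.989), Arf2 (0.987) and Efnb3 (0.984). For Gsc they were Gprc5a (0.996), Tesc (0.993) and Zdhhc24 (0.991). Smad6, Mbp, Frmd6 and Efnb3 passed for the mean of both siRNAs, and the others did not, among them every gene named for Gsc. The arrays share the siRNA and Mock contrast, and these values describe likeness over 6 arrays only.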

How the data were processed

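The authors deposited 1 log2 value per probe set and array, with RMA as the tool per the submitters' processing notes; the RMA settings are not given in the sources at hand. RMA corrects background, normalizes arrays against each other and combines probes, and it compresses changes near background. Of 16556 probe sets, 15270 had 1 gene in the platform annotation, 0 had several and 1286 had none; the brighter probe set was kept for 3 genes, which left 15267. Dim probe sets were kept. In R 4.3.3, limma 3.58.1 fitted 3 group means to all 6 arrays (3 residual degrees of freedom) with a variance trend. P-values are two-sided, adjusted by Benjamini-Hochberg over 15267 genes. Deviations of same-numbered samples correlated at 0.281 to 0.443 over genes, and their titles have a common suffix, so the numbers were taken to pair the samples; blocked values are printed where they change a call or move a count by over 1.5 times. Named were the 10 genes, Fip1l1, list genes past the threshold (or the 2 smallest p) and the 3 genes most like each gene that rose. Cdh1, Sox17, Ncam1 and Pax6 were added after their values were seen. The 10 genes and the lists were chosen with earlier results of these data known. Figures were drawn with matplotlib 3.10.9. Protein sequences were not used here. The model was tested on simulated data, first with raw gene spreads and then with the moderated spreads that the model itself estimates. Small changes were recovered far less often with the raw spreads, so genes that did not pass may still differ. Alternatives were other scalings, filters on dim genes, all probe sets, other variance settings, fits of 2 groups, single replicate numbers and each array left out.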

Additional observations from a re-analysis of the deposited data

How the results depend on the processing

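The replicate block called 3080 genes in the mean of both siRNAs minus Mock, 2624 for siFip1-2 and 2156 for siFip1-3, against 1578, 1057 and 877 without it; of the 10 genes 3, 3 and 2 were higher, and the block ended no call of Kdr, Evx1 or Gsc. Leaving out genes under the median level left 0 of the 10 called in each of the 3 comparisons with Mock, because the genes that rose were below that level and were not fitted. Without genes under the 25th percentile Gsc was not fitted. The mean difference of Gsc (0.58) did not pass with every probe set fitted or without the variance trend. Without the trend 227 genes differed between replicate numbers, against 382, and 526 passed for siFip1-3 when only the 2 groups were fitted. The split of 633 higher and 945 lower genes became 723 and 829 with arrays centred on their median, and 715 and 826 with quantile normalization repeated. In single replicate numbers, the mean difference was 0.52 and 0.86 for Evx1 and -0.017 and 0.57 for Snai1. The cause of these shifts was not tested.

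With 1 array left out (the lone array of a group is then assumed to vary like the others), 305 to 1368 genes passed for the mean of both siRNAs, 66 to 1094 for siFip1-2, 93 to 573 for siFip1-3 and 193 to 317 between replicate numbers; of the 10 genes 1 to 3, 0 to 3 and 0 to 1 were higher in the comparisons with Mock. The mean difference of Evx1 ran from 0.56 to 0.82 and that of Gsc from 0.48 to 0.68. Directions turned only for values that did not pass. For the mean of both siRNAs these were Lhx1 (-0.010 to 0.15) and Tbx6 (-0.26 to 0.050). With siFip1-2 they were Snai1 (-0.067 to 0.31), Isl1 (-0.0024 to 0.21), Mesp1 (-0.26 to 0.026) and Tbx6 (-0.20 to 0.12). With siFip1-3 they were Mixl1 (-0.23 to 0.040), Isl1 (-0.068 to 0.078) and Lhx1 (-0.13 to 0.022). Between the siRNAs they were Isl1 (-0.0074 to 0.21), Mesp1 (-0.034 to 0.23) and Mixl1 (-0.24 to 0.023). Between replicate numbers they were Mixl1 (-0.17 to 0.073), Snai1 (-0.12 to 0.25), Isl1 (-0.035 to 0.15), Evx1 (-0.093 to 0.075) and Snai2 (-0.026 to 0.19). In the interaction they were Kdr (-0.26 to 0.12), Lhx1 (-0.051 to 0.24), Mixl1 (-0.025 to 0.33) and Isl1 (-0.18 to 0.10).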
